A study of Rattus norvegicus with 3 samples.

Results

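The mature neutrophil cluster was the graph-based cluster richest in Cxcr2 RNA in each of 3 single-cell libraries of rat mandibular condyle, the head of the jaw joint. It was chosen by measured values: in each library, the cluster with the highest mean count of Cxcr2 was taken, which gave 3 of 52 clusters in all, cluster 8 of 15 in the sham library, cluster 8 of 18 in the UAC library and cluster 6 of 19 in the UAC_miR330 library. The levels of Cxcr2 itself are therefore a description of the choice and no result. Each library pooled the cartilage and subchondral bone of 16 condyles from 8 wild-type SD rats, all of which had an adeno-associated virus (AAV) injected into the temporomandibular joint and were kept for 8 weeks. The sham group had Vector AAV and no change to the bite, the UAC group had Vector AAV and a unilateral anterior crossbite (UAC, a one-sided change to the bite that loads the jaw joint abnormally), and the UAC_miR330 group had the crossbite and miR-330 AAV, which carries a microRNA. Sex and age were not given in the labels, and with 1 library per group no spread between animals could be measured. The third library is titled only as the UAC treatment group and was read as the miR-330 AAV group from the series design.

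Neutrophils are short-lived granulocytes that are made in bone marrow, which fills the bone under the condylar cartilage. While they mature they stop dividing and make primary, then secondary, then gelatinase granules in turn, and late in this course they gain Cxcr2, the receptor that draws them out of the marrow towards CXC chemokines, and make interleukin-1 beta. In an inflamed joint they release granule proteases, reactive oxygen, cytokines and chemokines that act on cartilage, bone and other leukocytes.

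The measurement was 3′ single-cell RNA sequencing, deposited as 1 mean count per gene and cluster with no values for single cells. Each mean was divided by the smallest positive mean of its cluster, which gave whole numbers of unique molecular identifiers (UMIs, 1 per captured RNA molecule). The libraries held 77668015 UMIs in sham, 92629658 in UAC and 97255383 in UAC_miR330, over 19680, 20166 and 20275 genes. Levels are given as UMIs per 1000000 UMIs of the cluster (CPM) with exact Poisson 95% intervals, which cover counting error only, not the difference between animals or libraries. For a count of 0 a fixed floor of 3 UMIs was set. It equals 0.984 CPM in the sham cluster, 1.36 in the UAC cluster and 1.23 in the UAC_miR330 cluster. The exact 95% interval of a 0 reaches higher, to 1.67 CPM in the UAC cluster. The files used here give no number of cells for a cluster, so fewer cells and less RNA per cell cannot be told apart. The treatment of doublets (2 cells in 1 droplet) was not given in the labels, and without values for single cells doublets could not be assessed here. As 3′ UMIs count molecules and not fragments, levels of different genes were set side by side without a correction for length.

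The 5 marker genes were described first, with their identifiers in the files and their GRCr8 positions in RefSeq: Cxcr2 (ENSRNOG00000014269, chr9:83178645-83185017), Csf3r (ENSRNOG00000008759, chr5:143583126-143604382), S100a8 (ENSRNOG00000011557, chr2:178464095-178465223), S100a9 (ENSRNOG00000011483, chr2:178487941-178490622) and Il1b (ENSRNOG00000004649, chr3:137030200-137036581). Cxcr2, which chose the clusters, stood at 183 CPM in sham (168 to 199, 558 UMIs), 242 in UAC (222 to 264, 536 UMIs) and 393 in UAC_miR330 (369 to 419, 959 UMIs). Just outside the rule, the next clusters (10 in sham, 7 in UAC and 15 in UAC_miR330) had 52.2, 139 and 264 CPM. The choice was thus clear in each library, with the narrowest gap in UAC_miR330 as a ratio and in UAC as a difference, and the median of the clusters outside the neutrophil series was 0.633, 0.892 and 0.841 CPM. Csf3r, the receptor for granulocyte colony-stimulating factor, stood at 148 CPM in sham, 206 in UAC and 257 in UAC_miR330, against 21.7, 54.2 and 88.3 CPM in the next clusters. Il1b, the cytokine interleukin-1 beta, stood at 1175 CPM in sham, 2158 in UAC and 2213 in UAC_miR330, against 104, 391 and 489 CPM in the next clusters. Both were highest of all clusters in the chosen cluster of each library, as a mature neutrophil label asks. S100a8 and S100a9, the paired subunits of the calcium-binding protein calprotectin, stood at 112986, 86444 and 73076 CPM and at 176483, 149013 and 124494 CPM. They were very high but not highest there: the chosen cluster ranked 2nd in sham, 4th in UAC and 3rd in UAC_miR330 for each, behind less mature granulocyte clusters. All 5 markers were therefore present at high level in all 3 clusters.

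The clusters next to the chosen one were laid out in order of Cxcr2, after the cluster outside the neutrophil series that was richest in the primary granule defensins Np4 and RatNP-3b (sham 14, 10 and 8; UAC 18, 12, 7 and 8; UAC_miR330 18, 9, 15 and 6). Camp, the cathelicidin of the secondary granule, stood along these clusters at 1496, 39012 and 7034 CPM in sham, at 41327, 38391, 13848 and 1807 CPM in UAC and at 29364, 36447, 11626 and 2184 CPM in UAC_miR330. Ngp, neutrophilic granule protein, stood at 181, 32119.7 and 3299 CPM in sham, at 6141, 47036, 16670.4 and 192 CPM in UAC and at 2954, 33722, 3899.6 and 87.4 CPM in UAC_miR330. Both genes peaked before the chosen cluster and were lower in it, and in sham the fall was less deep than in the other libraries, with Camp still among the 10 genes with the most UMIs. Sham had 2 clusters with high Cxcr2 and S100a8 RNA where UAC and UAC_miR330 had 3 each, and for Camp and Ngp the sham cluster lay between UAC clusters 7 and 8. For the comparison of UAC with sham, an effect of the crossbite and a coarser split of the neutrophils in the sham library therefore cannot be told apart within the chosen clusters. RatNP-3b stood along the same clusters at 19151, 27033 and 42.3 CPM in sham, at 78172, 2201, 41.3 and 48.3 CPM in UAC and at 79035, 6679, 51.9 and 59.9 CPM in UAC_miR330. Cluster 10 of sham thus also held early granulocyte RNA that lay mainly in cluster 18 of each of the other libraries. Cluster 14 of sham was not a granulocyte cluster alone, as it was also the sham cluster richest in erythroid markers (77312 CPM). S100a8 stood at 4074 CPM in it, against 113688 and 69354.6 CPM in cluster 18 of UAC and of UAC_miR330.

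**Figure D1:**
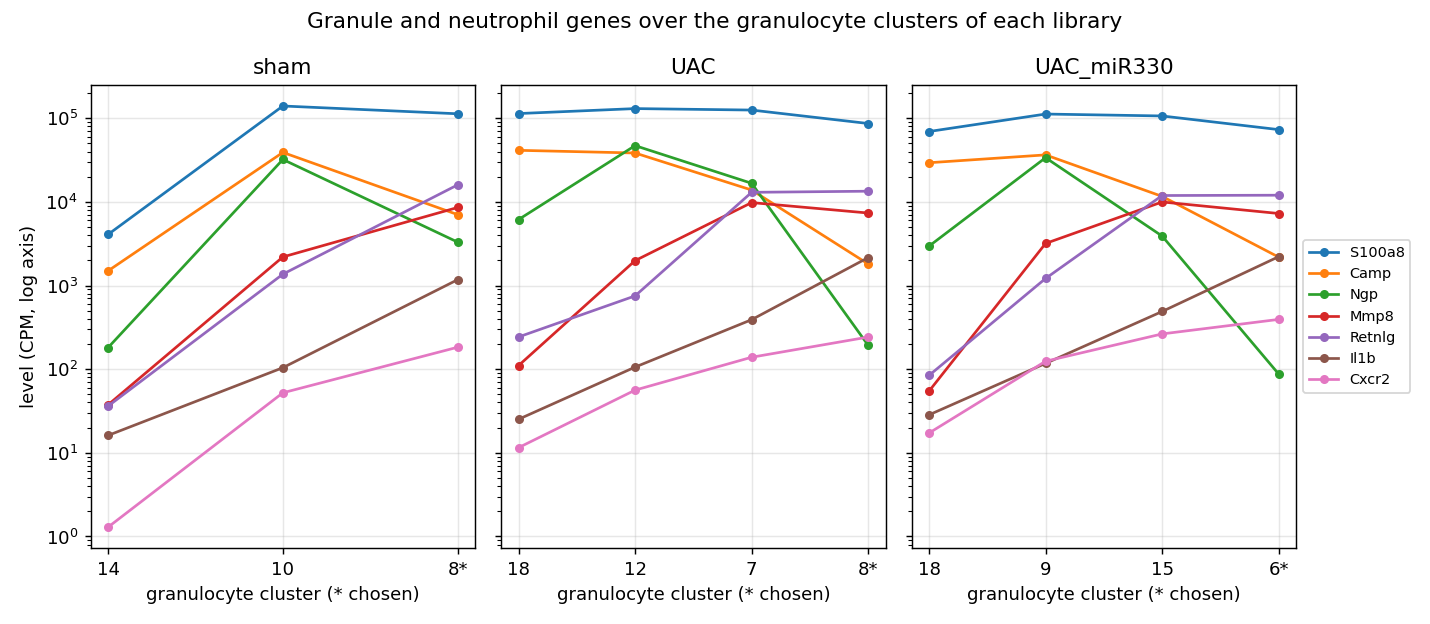
Level of selected genes in CPM on a log axis (vertical) over the clusters of each library in the order given above (horizontal, chosen cluster starred). The first sham cluster, 14, was also the sham cluster richest in erythroid markers. Cxcr2 and Il1b are highest in each chosen cluster, while Camp and Ngp are past their peak, with sham cluster 8 between UAC clusters 7 and 8.

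Since the sham neutrophils may be split more coarsely, each ratio was also computed on sums of clusters, of which the first 2 were chosen after the data were seen. The Il1b-rich sum took clusters with at least 50 CPM of Cxcr2 and 250 CPM of Il1b (sham 8; UAC 7 and 8; UAC_miR330 15 and 6). The whole neutrophil sum took clusters with at least 50 CPM of Cxcr2 and 50000 CPM of S100a8 (sham 10 and 8; UAC 12, 7 and 8; UAC_miR330 9, 15 and 6). The next-cluster sum added the next cluster for Cxcr2 (sham 10 and 8; UAC 7 and 8; UAC_miR330 15 and 6), so that for UAC_miR330 against UAC it was the Il1b-rich sum again. Where only both sums are named below, they are the Il1b-rich and the whole neutrophil sum. With cluster 10 of sham, the whole neutrophil and next-cluster sums took in early granulocyte RNA in sham and less of it in the other libraries. The chosen cluster held 3049441 of the sham UMIs (3.93%, exact Clopper-Pearson 95% interval 3.922 to 3.931), 2213619 of the UAC UMIs (2.39%, 2.387 to 2.393) and 2437229 of the UAC_miR330 UMIs (2.51%, 2.503 to 2.509). By this share sham stood above both crossbite libraries. The Il1b-rich sum held 3.93%, 7.17% and 4.74%, and the whole neutrophil sum held 10.0%, 12.3% and 10.6%. The order of the libraries for the share thus depended on the boundary: sham was highest for the single cluster and lowest for both sums.

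A few genes filled much of the chosen clusters. S100a8 and S100a9 together took 28.9%, 23.5% and 19.8% of the UMIs in sham, UAC and UAC_miR330, and the 10 genes with the most UMIs took 39.3%, 34.7% and 30.9%. Both shares were highest in sham and lowest in UAC_miR330, so the other genes shared a larger remainder in UAC_miR330. Below the calprotectin genes stood Tmsb4x, which binds actin monomers, at 25043 CPM in sham, 22242 in UAC and 20978 in UAC_miR330. The unnamed locus AC134224.3 stood at 15944, 25044 and 24680.1 CPM, lowest in sham. Lyz2, lysozyme, stood at 15785, 16508 and 23235 CPM, and Retnlg, resistin-like gamma, a late neutrophil secreted protein, stood at 15986, 13412 and 12011 CPM. Lyz2 was highest in UAC_miR330 and Retnlg in sham, each by less than 2-fold. Tf, transferrin, which carries iron, stood at 8311 CPM in sham, 3434 in UAC and 3941 in UAC_miR330, and was thus high in sham alone among the chosen clusters (log2 ratio of UAC to sham −1.27, but 0.35 in the Il1b-rich sum and 0.10 in the whole neutrophil sum). Mitochondrial genes took 2.40%, 2.36% and 2.83% of UMIs. The clusters outside the whole neutrophil sum ranged from 4.34% to 8.13% in sham, from 3.71% to 6.61% in UAC and from 4.17% to 6.82% in UAC_miR330. Ribosomal protein genes took 2.03%, 1.95% and 1.58%, below every cluster outside the whole neutrophil sum of each library. Both shares were low against these clusters in all 3 libraries, and the other neutrophil clusters were not compared.

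The 5 genes whose levels over the 52 clusters were most like those of Cxcr2 were found by Pearson's r of log2 of CPM plus 1 over 11409 genes, a description over clusters that share libraries and depth. They were the unnamed locus AABR07072963.1 (r = 0.973), Clec5a (0.966), Slc32a1 (0.964), Mmp8 (0.963) and Lrg1 (0.962). Clec5a, a myeloid lectin receptor, stood at 195 CPM in sham, 169 in UAC and 178 in UAC_miR330. Slc32a1, which encodes a vesicular transporter of inhibitory amino acids, stood at 30.5, 25.3 and 29.1 CPM, and AABR07072963.1 at 53.5, 69.6 and 93.1 CPM. Mmp8, neutrophil collagenase, stood at 8574, 7356 and 7259 CPM, and Lrg1, a leucine-rich glycoprotein stored in granules, at 1893, 2296 and 2667 CPM. None of the 5 differed by 2-fold between the libraries that were compared.

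The comparison of UAC with sham addresses what abnormal loading of the joint does, and that of UAC_miR330 with UAC what added miR-330 does under that loading. They share the UAC library, so their values are given side by side and are not independent. A gene was called measured when both clusters together had at least 20 UMIs, and called higher or lower when, in addition, the 95% intervals did not overlap and the ratio, with 0.5 UMI added to each count, was at least 2-fold. Ratios are given as log2 of the first group over the second, and these calls are no tests. Of 6926 genes measured for UAC and sham, 146 (2.11%) were called higher and 143 (2.06%) lower in UAC, with a median log2 ratio of 0.07. Of 6736 measured for UAC_miR330 and UAC, 209 (3.10%) were called higher and 81 (1.20%) lower in UAC_miR330, with a median of 0.18. The split between higher and lower calls depended on the scale. On the deposited scale, which adds 0.20 and 0.24 to every log2 ratio of the first and second comparison, the calls were 277 higher and 97 lower, and 533 and 31. Without the 10 genes with the most UMIs they were 110 and 177, and 148 and 96, and with ratios centred on their median the second comparison gave 97 and 122. A scale that left out housekeeping genes (here mitochondrial, haemoglobin, immunoglobulin and ribosomal protein genes) gave 144 and 143, and 209 and 78. Higher calls thus outnumbered lower calls in UAC_miR330 on every scale but the centred one.

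The calls were then followed into the summed clusters. Of the 146 genes called higher in UAC, 7 were still called higher in the Il1b-rich sum and 16 in the whole neutrophil sum, and 22 and 11 had a ratio of the opposite sign. Of the 143 called lower, 21 and 14 were still called lower, and 74 and 48 had the opposite sign. In the next-cluster sum 85 of the 146 and 47 of the 143 were still called, with 5 and 17 of opposite sign. The UAC against sham calls therefore depended on which neutrophil clusters were compared. Levels and ratios of single genes below are those of the chosen clusters unless a sum is named, and most UAC against sham calls named below were not made in both sums. Of the 209 genes called higher in UAC_miR330 than in UAC, 140 and 105 were still called higher in these sums, with 5 and 2 of opposite sign. Of the 81 called lower, 29 and 18 were still called lower, with 0 and 2 of opposite sign. The calls of the second comparison thus depended on the boundary as well, and whether they did so less than those of the first was not tested. The same ratios were taken over all clusters outside the neutrophil ones, summed. This rest held cluster 18 of UAC and of UAC_miR330 with its granulocyte RNA but not cluster 10 of sham, so that its UAC over sham ratios of S100a8 and Camp were 2.81 and 3.34. The UAC against sham values outside the neutrophil clusters are to be read with this in mind. There 108 of the 146 and 58 of the 143 genes had a ratio of the same sign, with medians of 0.37 and 0.11 against 0.03 over all measured genes. For UAC_miR330 and UAC, 197 of the 209 and 62 of the 81 had the same sign, with medians of 0.46 and −0.34 against 0.08. Most genes that differed between UAC_miR330 and UAC in the neutrophils thus leaned the same way, by a smaller amount, in the rest of the library.

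**Figure D2:**
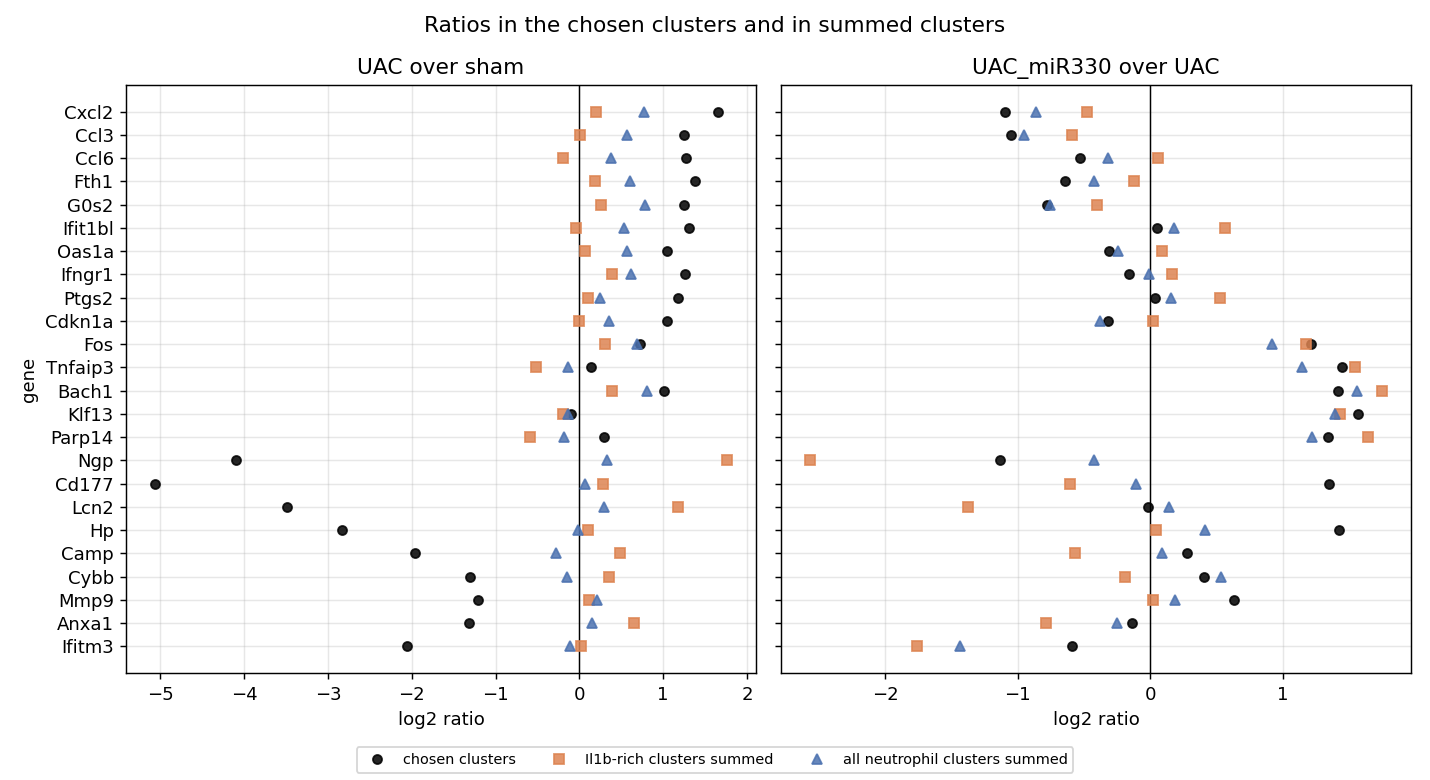
Log2 ratio (horizontal) of named genes (vertical) for UAC over sham (left) and UAC_miR330 over UAC (right), in the chosen clusters (circles), the Il1b-rich sum (squares) and the whole neutrophil sum (triangles). Granule genes such as Ngp and Lcn2 lie far below 0 for UAC over sham in the chosen clusters and above 0 in both sums, while Fos, Tnfaip3, Bach1, Klf13 and Parp14 lie above 0 for UAC_miR330 over UAC in all 3.

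The lists of genes by role that follow are each described by calls and median, to be read against those over all genes. In the chosen clusters these were 2.11% higher and 2.06% lower in UAC than in sham (median 0.07). For UAC_miR330 against UAC they were 3.10% higher and 1.20% lower (0.18). The sums had other backgrounds. For UAC against sham the Il1b-rich sum had 39 higher and 120 lower calls of 7874 genes (median −0.13). The whole neutrophil sum had 38 and 466 of 9312 (−0.07), and the next-cluster sum 193 and 821 of 8865 (−0.05). For UAC_miR330 against UAC the Il1b-rich sum had 423 and 61 of 8110 (0.27), and the whole neutrophil sum 409 and 42 of 9475 (0.27). Of 39 surface receptors measured for UAC and sham, 4 were called higher and 0 lower in UAC (median 0.43), and of 40 measured for UAC_miR330 and UAC, 1 was called higher and 0 lower in UAC_miR330 (median 0.19). The first median became −0.15 in the Il1b-rich sum, 0.24 in the whole neutrophil sum and 0.61 in the next-cluster sum. Hcar2, a receptor for ketone bodies and niacin, stood at 11.5 CPM in sham, 32.1 in UAC and 48.4 in UAC_miR330 (log2 ratios 1.47 and 0.59). Clec4e, a lectin that senses mycobacterial and dead-cell glycolipids, stood at 64.9 CPM in sham, 171 in UAC and 216 in UAC_miR330 (1.40 and 0.34). Ifngr1, a chain of the interferon gamma receptor, stood at 179 CPM in sham, 427 in UAC and 383 in UAC_miR330 (1.26 and −0.16). All were low in sham and high in both crossbite libraries. Il10ra, a chain of the receptor for the anti-inflammatory interleukin-10, stood at 16.4 CPM in sham, 19.0 in UAC and 43.1 in UAC_miR330 (0.21 and 1.17). It was high in UAC_miR330 alone, and its ratio to UAC was 1.27 in the Il1b-rich sum and 1.25 in the whole neutrophil sum. The most abundant receptors changed little: the Fc receptor Fcgr2a stood at 1926, 2600.3 and 2065 CPM and its signalling chain Fcer1g at 2275, 2222 and 1896 CPM. Il1r2, the decoy receptor that traps interleukin-1, stood at 1399 CPM in sham, 2093 in UAC and 1703 in UAC_miR330, with none of the ratios reaching 2-fold.

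Of 27 adhesion and migration genes measured in each comparison, 0 were called higher and 1 lower in UAC than in sham. The median was −0.06, and 0.13 on the deposited scale. It was −0.02, 0.14 and 0.23 in the Il1b-rich, whole neutrophil and next-cluster sums. In UAC_miR330 against UAC, 3 were called higher and 1 lower (median 0.24). Itga4, the alpha 4 integrin, stood at 14.4 CPM in sham, 11.7 in UAC and 29.1 in UAC_miR330 (1.29 against UAC). Selplg, the ligand by which leukocytes roll on P-selectin, stood at 3.94 CPM in sham, 6.32 in UAC and 15.2 in UAC_miR330 (1.23 against UAC). Both were called higher in UAC_miR330 than in UAC, where they were also called higher in both sums of clusters. Itga4 stood at 138, 173 and 299 CPM outside the neutrophil clusters, far above its level here, and the part of RNA from other cells was not tested. The actin regulators Arpc1b, Lcp1 and Coro1a were the most abundant, at 2141, 2259 and 2304 CPM, 1553, 1323 and 1686 CPM and 1528, 1386 and 1706 CPM. None of these differed by 2-fold in either comparison.

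Secondary granule genes gave the 2 largest ratios between UAC and sham among called genes with at least 100 UMIs, without housekeeping genes and markers of other cell types, and they are genes that fall during maturation. Of 14 secondary granule genes measured, 0 were called higher and 8 lower in UAC than in sham (median −1.30), and 2 higher and 1 lower in UAC_miR330 than in UAC (median 0.07, −0.11 when centred and −0.01 without the top 10 genes). The first median became 0.11 in the Il1b-rich sum and 0.12 in the whole neutrophil sum, with 0 lower calls in both, and −0.09 in the next-cluster sum, with 3 lower calls. The low values thus depended on the boundary, and part of them was seen in the next-cluster sum as well. Cd177, a surface glycoprotein stored in these granules, stood at 460.1 CPM in sham, 13.6 in UAC and 34.9 in UAC_miR330 (log2 ratios −5.06 and 1.35). Ngp stood at 3299 CPM in sham, 192 in UAC and 87.4 in UAC_miR330 (−4.10 and −1.14). Lcn2, lipocalin 2, which withholds iron from bacteria, stood at 529 CPM in sham, 47.0 in UAC and 46.4 in UAC_miR330 (−3.49 and −0.02). These genes were high in sham and low in both crossbite libraries. Hp, haptoglobin, which binds free haemoglobin, stood at 485 CPM in sham, 68.2 in UAC and 183 in UAC_miR330 (−2.83 and 1.42), and Camp at 7034 CPM in sham, 1807 in UAC and 2184 in UAC_miR330 (−1.96 and 0.27). Anxa1, annexin A1, a lipid-binding protein that restrains neutrophil entry, stood at 7249.9 CPM in sham, 2902 in UAC and 2642 in UAC_miR330 (−1.32 and −0.14). They too were highest in sham, and Hp, like Cd177, was called higher in UAC_miR330 than in UAC in the chosen clusters. In the Il1b-rich and whole neutrophil sums that ratio was −0.60 and −0.11 for Cd177 and 0.04 and 0.41 for Hp, without a call, while in the Il1b-rich sum 0 genes of the list were called higher and 2 lower in UAC_miR330 than in UAC (median −0.19), Ngp (−2.57) and Lcn2 (−1.38). The calls of granule genes between UAC_miR330 and UAC thus depended on the boundary too. In the Il1b-rich sum the UAC over sham ratios of Cd177, Ngp, Lcn2, Hp, Camp and Anxa1 were 0.28, 1.76, 1.17, 0.11, 0.48 and 0.65, all above 0. In the whole neutrophil sum they were 0.06, 0.33, 0.29, −0.02, −0.28 and 0.15, none past 2-fold. Of these, Ngp and Lcn2 were called higher in UAC in the Il1b-rich sum, the opposite of the call in the chosen clusters. In the next-cluster sum the 6 ratios were −0.46, −0.90, −1.91, −0.01, −1.43 and −0.26, with Lcn2 and Camp called lower. Ltf, lactoferrin, the classical secondary granule protein, had 0 UMIs in all 3 chosen clusters and at most 1 UMI in any granulocyte cluster, also where Camp was high, so its 0 says nothing of the chosen clusters.

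Primary granule genes, made earliest, were scarce: 6 were measured for UAC and sham, of which 0 were called higher and 1 lower (median 0.16), and 7 for UAC_miR330 and UAC, with 0 calls either way (median 0.00, 0.23 on the deposited scale). In the whole neutrophil sum 8 of 13 were called lower in UAC than in sham (median −3.12), against 466 of 9312 over all genes. There 5 of 13 were called higher in UAC_miR330 than in UAC (median 0.08), against 409 of 9475. In the next-cluster sum 9 of 13 were called lower and 1 higher in UAC than in sham (median −3.40), against 821 and 193 of 8865. Both of these sums held cluster 10 of sham, with its early granulocyte RNA. Serpinb1a, an inhibitor of the granule proteases, stood at 422 CPM in sham, 187 in UAC and 118 in UAC_miR330 (−1.17 and −0.66). Elane, neutrophil elastase, stood at 39.4 CPM in sham, 78.2 in UAC and 52.1 in UAC_miR330, and Ctsc, the protease that activates it, at 876, 1134 and 1023 CPM. Serpinb1a was highest in sham, and the others differed by less than 2-fold. In the Il1b-rich sum Serpinb1a was instead called higher in UAC than in sham (1.08). Of 25 genes of the gelatinase granule and of late neutrophils, 2 were called higher and 2 lower in UAC than in sham (median 0.12; −0.07, 0.17 and 0.51 in the Il1b-rich, whole neutrophil and next-cluster sums), and 1 higher and 0 lower in UAC_miR330 than in UAC (median −0.02, 0.22 on the deposited scale). Fth1, the ferritin heavy chain that stores iron, stood at 4661 CPM in sham, 12119 in UAC and 7759.6 in UAC_miR330 (1.38 and −0.64). G0s2, an inhibitor of triglyceride breakdown, stood at 3357 CPM in sham, 7946 in UAC and 4636 in UAC_miR330 (1.24 and −0.78). Both were highest in UAC and between the others in UAC_miR330. Mmp9, gelatinase B, which cuts denatured collagen, stood at 923 CPM in sham, 398 in UAC and 616 in UAC_miR330 (−1.21 and 0.63), and the interferon-induced membrane protein Ifitm3 at 146 CPM in sham, 34.8 in UAC and 23.0 in UAC_miR330 (−2.06 and −0.59). Both were highest in sham, and in the Il1b-rich sum their UAC over sham ratios were 0.12 and 0.02. Ifitm3 was called lower in UAC_miR330 than in UAC in the Il1b-rich sum (−1.76) and the whole neutrophil sum (−1.44). The same call was made outside the neutrophil clusters (−1.55). Stfa3, a stefin that inhibits cysteine proteases, stood at 19.3 CPM in sham, 14.0 in UAC and 29.5 in UAC_miR330 and was called higher in UAC_miR330 than in UAC (1.06), but its ratio turned to −0.22 in the Il1b-rich sum and −0.57 in the whole neutrophil sum.

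No S100 gene of 7 measured was called in either comparison (medians 0.19 and −0.24). S100a8 gave log2 ratios of −0.39 and −0.24, S100a9 gave −0.24 and −0.26, and S100a11 stood at 3247, 2977 and 3331 CPM. In the chosen clusters the calprotectin genes thus stepped down from sham to UAC to UAC_miR330 by less than 2-fold, with intervals apart at each step. In the Il1b-rich and whole neutrophil sums the UAC over sham ratio was −0.01 and −0.11 for S100a8 and 0.15 and 0.11 for S100a9, so the first step depended on the boundary. Of 8 genes of the NADPH oxidase, which makes superoxide, 0 were called higher and 1 lower in UAC than in sham (median −0.23; −0.01, 0.01 and −0.02 in the Il1b-rich, whole neutrophil and next-cluster sums), and 0 either way in UAC_miR330 against UAC (median 0.11, −0.07 when centred). Cybb, its catalytic subunit, stood at 250.2 CPM in sham, 101 in UAC and 133 in UAC_miR330 (−1.31 and 0.40), against 0.35 for UAC over sham in the Il1b-rich sum. Its partner Cyba stood at 1159 CPM in sham, 983 in UAC and 1036 in UAC_miR330, the activating GTPase Rac2 at 1065, 768 and 772 CPM and the cytosolic subunit Ncf4 at 422, 462 and 501 CPM. Only the catalytic subunit was called in the chosen clusters. Outside the neutrophil clusters it stood at 191, 309 and 343 CPM. In the next-cluster sum it was called lower in UAC than in sham too (−1.66), and in both other sums it had no call.

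Cytokine and chemokine genes had the largest share of higher calls of the neutrophil role lists in the chosen clusters in UAC against sham: of 13 measured, 6 were called higher and 0 lower (median 0.88), and of 17 measured for UAC_miR330 and UAC, 2 were called higher and 3 lower (median 0.03, −0.15 when centred and −0.06 without the top 10 genes). The first median became −0.18 in the Il1b-rich sum and 0.09 in the whole neutrophil sum, where 1 of 16 and 0 of 20 were called higher. The large share of higher calls thus held for the chosen clusters and was lost in both sums. In the next-cluster sum 4 of 18 were called higher and 1 lower (median 0.52), with Cxcl2 (1.54), Ccl3 (1.32) and Ccl6 (1.15) among the higher ones. Cxcl2, a chemokine ligand of Cxcr2, stood at 552 CPM in sham, 1739 in UAC and 814 in UAC_miR330 (95% intervals 526 to 579, 1685 to 1795 and 778 to 850.2; log2 ratios 1.65 and −1.10). Ccl3, a chemokine that draws monocytes and acts on osteoclast precursors, stood at 409 CPM in sham, 967 in UAC and 467 in UAC_miR330 (386 to 432, 927 to 1009 and 440.2 to 495; 1.24 and −1.05). Both were high in UAC and lower in UAC_miR330, where both stayed above sham with intervals apart, Ccl3 by little. Cxcl1, the other main Cxcr2 ligand of the rat, stood at 55.1 CPM in sham, 47.9 in UAC and 23.8 in UAC_miR330 (−0.20 and −1.003). It was low in UAC_miR330, and sham and UAC overlapped in the chosen clusters. Over the clusters outside the neutrophil ones, Cxcl2 stood at 17.7, 42.0 and 17.9 CPM, Ccl3 at 37.6, 126 and 47.0 CPM and Cxcl1 at 13.1, 42.6 and 8.82 CPM. In the rest of the library all 3 chemokines were thus high in UAC and lower in UAC_miR330, where Cxcl2 was about level with sham, Ccl3 above it and Cxcl1 below it. In the Il1b-rich sum the UAC_miR330 over UAC ratios of Cxcl2, Ccl3 and Cxcl1 were −0.48, −0.59 and −0.42, and in the whole neutrophil sum −0.86, −0.95 and −0.86. They kept their sign and did not reach 2-fold, and the UAC over sham ratios of Cxcl2, Ccl3 and Cxcl1 became 0.20, 0.01 and −1.68 in the Il1b-rich sum and 0.77, 0.57 and −1.03 in the whole neutrophil sum. Cxcl1 was thus called lower in UAC than in sham in both sums, opposite to its ratio in the rest of the library.

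Ccl6, an abundant chemokine of rodent granulocytes, stood at 2873 CPM in sham, 6937 in UAC and 4803 in UAC_miR330 (1.27 and −0.53). Csf1, the growth factor of macrophages and osteoclasts, stood at 13.8 CPM in sham, 37.9 in UAC and 40.2 in UAC_miR330 (1.45 and 0.08). Vegfa, which drives vessel growth, stood at 30.8 CPM in sham, 80.4 in UAC and 80.4 in UAC_miR330 (1.38 and 0.00). Ccl6 was highest in UAC, while Csf1 and Vegfa were low in sham and alike in both crossbite libraries. In the Il1b-rich sum the UAC over sham ratios of Ccl6, Csf1 and Vegfa turned to −0.19, −0.07 and −0.12, and in the whole neutrophil sum they were 0.37, −0.04 and 0.25, without a call. Cxcl10, an interferon-induced chemokine, had 8, 1 and 21 UMIs in sham, UAC and UAC_miR330, and Ccl20, which draws cells that carry Ccr6, had 10, 0 and 21 UMIs. Both were called higher in UAC_miR330 than in UAC from very few UMIs. Il1b gave ratios of 0.88 and 0.04, short of 2-fold in both, and in the chosen clusters was higher in both crossbite libraries than in sham with intervals apart, while its UAC over sham ratio was −0.26 in the Il1b-rich sum and 0.23 in the whole neutrophil sum.

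**Figure D3:**
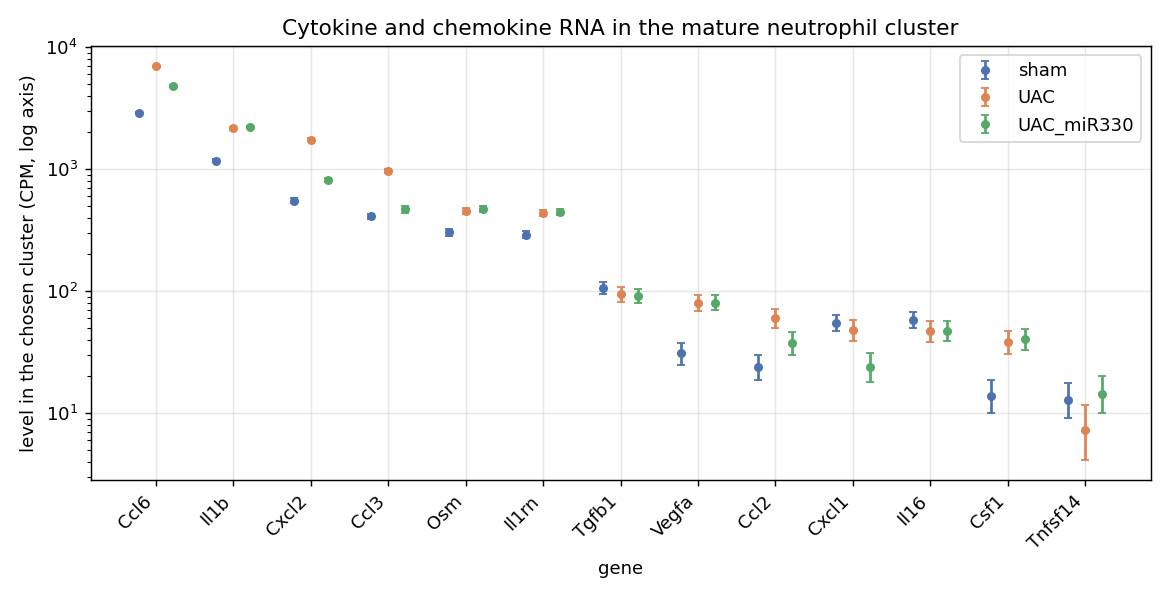
Level in CPM on a log axis (vertical) of the cytokine and chemokine genes measured in both comparisons (horizontal) in the chosen cluster of each library, with exact Poisson 95% intervals as bars. Cxcl2 and Ccl3 stand highest in UAC, at 1739 and 967 CPM, and come down to 814 and 467 CPM in UAC_miR330.

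Since Cxcl1 and Cxcl2 were lower together in UAC_miR330, the 250 bases before their starts were read from RefSeq promoters on GRCr8, and 5 of 6 genes looked for (Cxcl1, Cxcl2, Tnfaip3, Il1b and Nfkbia, without Ccl3) had an entry. The kappa B motif and the AP-1 motif TGANTCA were searched on both strands. Of 33469 promoters of this length, 6.33% held the kappa B motif and 6.34% the AP-1 motif. Cxcl1 and Cxcl2 each held 2 overlapping kappa B matches in 1 stretch, Tnfaip3 3, Nfkbia 1 and Il1b 0, and only Tnfaip3 held the AP-1 motif (1 match). A match is a description of the letters and not a site shown to be bound. The windows of Cxcl1 (chr14:17479322-17479571, minus strand) and Cxcl2 (chr14:17467256-17467505, minus strand) are printed 5′ to 3′ to show this shared stretch, with the kappa B letters in capitals.
Cxcl1: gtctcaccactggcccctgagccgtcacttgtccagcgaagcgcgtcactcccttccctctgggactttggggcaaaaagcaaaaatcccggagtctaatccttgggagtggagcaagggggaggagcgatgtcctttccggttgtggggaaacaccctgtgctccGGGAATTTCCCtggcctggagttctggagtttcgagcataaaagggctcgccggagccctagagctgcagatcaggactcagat
Cxcl2: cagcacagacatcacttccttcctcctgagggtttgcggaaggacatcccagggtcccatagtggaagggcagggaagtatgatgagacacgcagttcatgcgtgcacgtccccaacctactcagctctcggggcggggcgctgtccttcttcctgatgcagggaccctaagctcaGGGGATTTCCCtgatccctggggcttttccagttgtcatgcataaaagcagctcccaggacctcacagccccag

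Among genes of the inflammasome and interleukin-1 processing, 1 of 16 measured was called higher and 0 lower in UAC than in sham (median 0.58), and 1 of 14 was called higher and 0 lower in UAC_miR330 than in UAC (median 0.18). The first median became −0.23 in the Il1b-rich sum, 0.14 in the whole neutrophil sum and 0.44 in the next-cluster sum. Il1r1, the signalling receptor of interleukin-1, had 4, 18 and 22 UMIs in sham, UAC and UAC_miR330 (2.50 and 0.14). Mefv, pyrin, the sensor of an inflammasome, stood at 12.1 CPM in sham, 14.0 in UAC and 30.8 in UAC_miR330 (0.21 and 1.12). Il1rn, the receptor antagonist that blocks interleukin-1, stood at 289 CPM in sham, 437 in UAC and 446 in UAC_miR330, without a call. Il1r1 was thus scarce in sham, Mefv was high in UAC_miR330 alone, and the antagonist was moderately higher in both crossbite libraries.

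For the NF-kB subunits, their inhibitors and feedback genes, 1 of 28 was called higher and 0 lower in UAC than in sham (median 0.34), and 1 higher and 0 lower in UAC_miR330 than in UAC (median 0.01, −0.18 when centred and −0.08 without the top 10 genes). The first median became −0.26 in the Il1b-rich sum, 0.08 in the whole neutrophil sum and 0.38 in the next-cluster sum. Tnfaip3, which encodes A20, an enzyme that shuts NF-kB signalling down, stood at 14.4 CPM in sham, 15.8 in UAC and 43.5 in UAC_miR330 (0.14 and 1.45). It was about equal in sham and UAC and high in UAC_miR330, and this ratio was 1.54 in the Il1b-rich sum and 1.15 in the whole neutrophil sum. Nfkbia, the inhibitor that holds NF-kB in the cytoplasm, stood at 1199.9 CPM in sham, 1379 in UAC and 1251 in UAC_miR330, without a call. Sod2, the mitochondrial superoxide dismutase, stood at 1539, 2166 and 1649 CPM, Ier3, an early response gene, at 466, 595 and 400.5 CPM and the survival gene Bcl2a1 at 259, 484 and 362 CPM. These abundant NF-kB target genes were all highest in UAC in the chosen clusters, by less than 2-fold. In the Il1b-rich sum the UAC over sham ratios of Nfkbia, Sod2, Ier3 and Bcl2a1 were −0.64, −0.16, −0.22 and −0.42. They were −0.18, 0.29, 0.12 and 0.19 in the whole neutrophil sum, and none was called in either.

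Immediate early genes, which respond to stimulation and to tissue handling within minutes, gave 4 higher and 0 lower calls of 23 in UAC against sham (median 0.52; −0.10, 0.33 and 0.66 in the Il1b-rich, whole neutrophil and next-cluster sums), and 2 higher and 1 lower of 24 in UAC_miR330 against UAC (median 0.08, −0.10 when centred and −0.01 without the top 10 genes). Fos, a subunit of AP-1, stood at 182 CPM in sham, 299.5 in UAC and 695 in UAC_miR330 (0.72 and 1.21). Egr1, a zinc finger factor, stood at 27.2 CPM in sham, 26.7 in UAC and 60.7 in UAC_miR330 (−0.03 and 1.18). Both were high in UAC_miR330, and outside the neutrophil clusters they stood at 169.8, 207 and 238 CPM and 59.6, 60.0 and 73.8 CPM, with much smaller differences. Their UAC_miR330 over UAC ratios in the Il1b-rich and whole neutrophil sums were 1.17 and 0.915 for Fos and 0.97 and 0.90 for Egr1. Of these only that of Fos in the Il1b-rich sum was called. Atf3, a stress-induced repressor, stood at 15.7 CPM in sham, 45.2 in UAC and 63.2 in UAC_miR330 (1.51 and 0.48), and Klf2, a factor that restrains myeloid activation, at 22.0 CPM in sham, 56.9 in UAC and 44.7 in UAC_miR330 (1.37 and −0.35). Both were low in sham, and Klf2 was also called higher in UAC than in sham in each sum, with 1.13 in the Il1b-rich and 1.29 in the whole neutrophil sum. Maff, a small partner of bZIP factors, stood at 16.4 CPM in sham, 37.5 in UAC and 34.9 in UAC_miR330 (1.19 and −0.10). Dusp2, a nuclear phosphatase of MAP kinases, stood at 10.5 CPM in sham, 23.9 in UAC and 8.62 in UAC_miR330 (1.18 and −1.45). Dusp2 was high in UAC alone, and its lower call in UAC_miR330 was also made in both sums. It stood at 171, 203 and 133 CPM outside the neutrophil clusters, far above its level here, and the part of RNA from other cells was not tested. Dusp1, Junb and Jund were the most abundant of the list, at 488, 914 and 849 CPM, 693, 1297 and 1164 CPM and 915, 1093 and 961 CPM, without a call. The part of tissue handling in these values was not tested.

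Interferon-stimulated genes gave 3 higher and 1 lower calls of 33 in UAC against sham (median 0.46), and 4 higher and 0 lower of 34 in UAC_miR330 against UAC (median 0.49). The first median became −0.44 in the Il1b-rich sum, 0.02 in the whole neutrophil sum and 0.43 in the next-cluster sum, and the second became 0.79 with 11 higher and 1 lower calls in the Il1b-rich sum, and 0.53 in the whole neutrophil sum. The list thus was below 0 in the Il1b-rich sum alone for UAC against sham, near 0 in the whole neutrophil sum and little changed in the next-cluster sum, and it stayed above the median of all genes for UAC_miR330 against UAC. Ifit1bl, an RNA-binding antiviral protein, stood at 532 CPM in sham, 1319.6 in UAC and 1367 in UAC_miR330 (1.31 and 0.05). Oas1a, which senses double-stranded RNA, stood at 405 CPM in sham, 834 in UAC and 670.4 in UAC_miR330 (1.04 and −0.32), and Oas3 of the same family at 6.56 CPM in sham, 17.2 in UAC and 14.4 in UAC_miR330 (1.37 and −0.26). All were low in sham and alike in both crossbite libraries. Parp14, an ADP-ribosyltransferase, stood at 24.3 CPM in sham, 29.8 in UAC and 75.9 in UAC_miR330 (0.30 and 1.34). Ifi47, a GTPase of interferon gamma responses, stood at 6.23 CPM in sham, 6.78 in UAC and 17.6 in UAC_miR330 (1.35 against UAC), and Irf9, the factor that joins STAT proteins downstream of type I interferon, at 11.5 CPM in sham, 10.8 in UAC and 22.6 in UAC_miR330 (1.04 against UAC). They formed a second group, about equal in sham and UAC and high in UAC_miR330. Parp14 stood at 63.7, 66.7 and 92.3 CPM outside the neutrophil clusters, above its level here. The part of RNA from other cells in its ratios was not tested. Slfn4 and Ifit3, the most abundant of the list, stood at 2654, 4951 and 4904 CPM and 889, 1698 and 1522 CPM, below 2-fold.

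Of 32 transcription factors of granulocytes measured for UAC and sham, 3 were called higher and 1 lower in UAC (median 0.28; 0.01, 0.09 and 0.27 in the Il1b-rich, whole neutrophil and next-cluster sums), and of 34 measured for UAC_miR330 and UAC, 2 were called higher and 0 lower in UAC_miR330 (median 0.16, −0.03 when centred). Cebpe, which drives secondary granule genes, stood at 33.8 CPM in sham, 5.42 in UAC and 8.21 in UAC_miR330 (−2.59 and 0.57), highest in sham as those genes were. Bach1, a haem-sensing repressor, stood at 16.4 CPM in sham, 33.0 in UAC and 88.2 in UAC_miR330 (1.00 and 1.41), and in the sums its second ratio was 1.75 and 1.56. Klf13, a Kruppel-like factor, stood at 36.4 CPM in sham, 33.9 in UAC and 101 in UAC_miR330 (−0.10 and 1.57), and in the sums its second ratio was 1.43 and 1.39. In the chosen clusters Bach1 rose at each step, and Klf13 rose in UAC_miR330 only. Klf13 stood at 119.7, 116.5 and 155 CPM outside the neutrophil clusters, above its level here. The part of RNA from other cells in its ratios was not tested. The UAC over sham ratio of Bach1 was 0.38 in the Il1b-rich sum and 0.81 in the whole neutrophil sum, without a call. Ets2, an ETS family factor, stood at 73.8 CPM in sham, 196 in UAC and 214 in UAC_miR330 (1.41 and 0.13). Cebpb, which sustains granulocyte production under stress, stood at 2249 CPM in sham, 3843 in UAC and 3404 in UAC_miR330, and Max and Mxd1, partners in the MYC network, stood at 500.1, 616 and 635 CPM and 415, 537 and 699.6 CPM. Ets2 was low in sham, and the others changed by less than 2-fold.

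Of 25 genes of survival and death, 2 were called higher and 0 lower in UAC than in sham (median 0.33; −0.24, 0.04 and 0.47 in the Il1b-rich, whole neutrophil and next-cluster sums), and 1 higher and 0 lower in UAC_miR330 than in UAC (median 0.27). Cdkn1a, an inhibitor of the cell cycle, stood at 132 CPM in sham, 274 in UAC and 219.5 in UAC_miR330 (1.05 and −0.32), and Pmaip1, a BH3-only protein that favours apoptosis, at 156 CPM in sham, 329 in UAC and 233 in UAC_miR330 (1.07 and −0.50). Both were highest in UAC, and in the Il1b-rich sum their UAC over sham ratios were 0.00 and 0.05. Apaf1, which builds the apoptosome, stood at 21.3 CPM in sham, 18.5 in UAC and 39.0 in UAC_miR330 and was called higher in UAC_miR330 than in UAC (1.06). This ratio was 0.95 in the Il1b-rich sum and 0.80 in the whole neutrophil sum, without a call. Apaf1 stood at 124, 120 and 145 CPM outside the neutrophil clusters, far above its level here. Gadd45a, a stress and DNA damage gene, stood at 1175, 1552 and 1861 CPM, without a call.

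In the eicosanoid pathway, 1 gene of 13 was called higher and 1 lower in UAC than in sham (median −0.07, 0.12 on the deposited scale; −0.05, 0.01 and 0.02 in the Il1b-rich, whole neutrophil and next-cluster sums), and 1 of 12 higher and 0 lower in UAC_miR330 than in UAC (median 0.14, −0.04 when centred). Ptgs2, cyclooxygenase 2, which starts prostaglandin synthesis, stood at 92.5 CPM in sham, 209 in UAC and 214 in UAC_miR330 (1.17 and 0.04), and the prostacyclin receptor Ptgir had 19, 11 and 32 UMIs in sham, UAC and UAC_miR330 (−0.30 and 1.36). Ptgs2 was low in sham and Ptgir was high in UAC_miR330. Alox5ap and Lta4h, which serve leukotriene synthesis, stood at 1632, 1695 and 1715 CPM and 552, 540.3 and 505 CPM, nearly level in the 3 libraries. Among glycolysis and hypoxia genes, 2 of 26 were called higher and 0 lower in UAC than in sham (median 0.32; 0.04, 0.08 and 0.23 in the Il1b-rich, whole neutrophil and next-cluster sums), and 1 higher and 0 lower in UAC_miR330 than in UAC (median 0.03, −0.15 when centred and −0.05 without the top 10 genes). Slc2a1, a glucose transporter, had 7, 22 and 17 UMIs in sham, UAC and UAC_miR330 (2.05 and −0.50), and Hk1, a hexokinase, stood at 11.1 CPM in sham, 9.94 in UAC and 20.5 in UAC_miR330 (1.03 against UAC). Slc16a3, the lactate exporter, stood at 1155, 1453 and 1361 CPM, and the glycolytic enzymes Gapdh and Ldha at 1069, 846 and 693 CPM and 793, 983 and 798 CPM. The abundant members of the list thus stayed within 2-fold in both comparisons. Respiratory chain genes gave 0 higher and 1 lower call of 41 in UAC against sham (median −0.15, 0.04 on the deposited scale; −0.07, −0.22 and −0.33 in the Il1b-rich, whole neutrophil and next-cluster sums) and 0 either way in UAC_miR330 against UAC (median −0.11, 0.13 on the deposited scale). Cox7c, a subunit of cytochrome c oxidase, stood at 107 CPM in sham, 51.0 in UAC and 43.9 in UAC_miR330 (−1.07 and −0.22), while its fellow subunits Cox6b1, Cox6c and Cox8a stood at 339.7, 345 and 290.5 CPM, 476, 399 and 371 CPM and 439.8, 456 and 425 CPM. Of these only Cox7c was called, lower in UAC than in sham. That ratio was 0.15 in the Il1b-rich sum, without a call. Cox7c stood at 604, 519 and 444 CPM outside the neutrophil clusters, far above its level here. The part of RNA from other cells in its ratios was not tested.

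Antigen presentation genes gave 2 higher and 0 lower calls of 14 in UAC against sham (median 0.49; −0.12, 0.22 and 0.45 in the Il1b-rich, whole neutrophil and next-cluster sums), and 1 higher and 2 lower of 15 in UAC_miR330 against UAC (median 0.10, −0.08 when centred). The class I light chain B2m stood at 3944, 5610.3 and 5167 CPM, and the class I heavy chains RT1-A2, RT1-CE1 and RT1-CE5 at 348, 621 and 505 CPM, 321, 443 and 555 CPM and 16.7, 26.2 and 53.3 CPM. All of these were lowest in sham, and RT1-CE5 was called higher in UAC_miR330 than in UAC (1.02). Cd74, the class II invariant chain, stood at 127 CPM in sham, 178 in UAC and 67.3 in UAC_miR330 (0.49 and −1.40), and the class II chains RT1-Da and RT1-Ba at 23.6, 56.5 and 25.0 CPM and 7.21, 24.4 and 14.0 CPM. These class II genes were highest in UAC, and outside the neutrophil clusters Cd74 stood at 1179.9, 1431 and 1134 CPM, far above its level here. In the Il1b-rich and whole neutrophil sums the UAC_miR330 over UAC ratio of Cd74 was −0.90 and −0.84, without a call. The part of free RNA from other cells in the class II values was not tested. Of the cell cycle genes, 12 were measured for UAC and sham with 0 calls either way (median 0.02, −0.06 when centred and −0.08 without the top 10 genes), and 7 for UAC_miR330 and UAC with 1 higher and 0 lower (median −0.27). In the whole neutrophil sum 24 of 27 were called lower in UAC than in sham (median −2.91), against 466 of 9312 over all genes. There 8 of 26 were called higher in UAC_miR330 than in UAC (median 0.38), against 409 of 9475. In the next-cluster sum 24 of 27 were called lower in UAC than in sham (median −2.96), against 821 of 8865. Calls of cell cycle genes between UAC and sham were thus made where cluster 10 of sham was included, apart from 1 lower call in the Il1b-rich sum. Mki67, a marker of dividing cells, stood at 15.1 CPM in sham, 18.1 in UAC and 46.4 in UAC_miR330 (0.26 and 1.35), while outside the neutrophil clusters it stood at 276, 269.7 and 521 CPM, and its UAC over sham ratio was −2.66 in the whole neutrophil sum and −2.29 in the next-cluster sum. Hmgb2, Pcna and Tubb5, the most abundant of the list, stood at 1811, 1331 and 1885 CPM, 74.1, 145 and 119.8 CPM and 67.6, 48.8 and 24.6 CPM. Mki67 was thus low in the chosen clusters, and highest of the 3 in UAC_miR330 there and outside the neutrophil clusters, but not in the sums that held cluster 10 of sham.

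The 10 largest rises and falls in each comparison were taken among called genes with at least 100 UMIs in both clusters together, without housekeeping genes and markers of other cell types. In UAC against sham, Fetub, a liver-type protease inhibitor, led the rises at 9.18 CPM in sham, 51.0 in UAC and 37.7 in UAC_miR330 (2.46). Scimp, an adaptor of Toll-like receptor signalling, followed at 20.3 CPM in sham, 97.1 in UAC and 87.8 in UAC_miR330 (2.25). Plin2, which coats lipid droplets, stood at 423 CPM in sham, 1309.6 in UAC and 806 in UAC_miR330 (1.63). All 3 were low in sham, and Fetub was also called higher in UAC in both sums. The other rises were Vmp1 (1.79), Nudt9 (1.76), Hecw2 (1.68), AC120721.1 (1.67), Cxcl2, Tpi1 (1.53) and Arrdc3 (1.51). The falls beside Cd177, Ngp, Lcn2 and Hp included Abca13 (−3.69), Orm1 (−2.95), Ccdc125 (−2.88), Chit1 (−2.70) and Qpct (−2.48). Abca13, a lipid transporter, stood at 31.8 CPM in sham, 2.26 in UAC and 8.62 in UAC_miR330, and Orm1, an acute phase protein stored in granules, at 40.0 CPM in sham, 4.97 in UAC and 7.80 in UAC_miR330. Both followed the secondary granule genes in the chosen clusters, high in sham and low elsewhere. In the Il1b-rich sum their UAC over sham ratios turned to 0.92 and 1.05, with Orm1 called higher in UAC.

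In UAC_miR330 against UAC, the unnamed locus AABR07000398.1 rose most, at 72.8 CPM in sham, 52.0 in UAC and 411 in UAC_miR330 (2.98). Outside the neutrophil clusters it stood at 180.1, 116 and 574 CPM, so it was highest in UAC_miR330 in the sum of the other clusters too. Hist1h1c, a linker histone, stood at 30.2 CPM in sham, 25.3 in UAC and 96.4 in UAC_miR330 (1.92). It was high in UAC_miR330 alone, and in the rest of the library it stood at 78.3, 101 and 238 CPM. Other rises beside Klf13, Tnfaip3 and Hp were AABR07071244.1 (1.57), Bod1l1 (1.55), Arrb1 (1.45) and AC097153.2 (1.45). Trim2, a ubiquitin ligase, fell most, at 30.2 CPM in sham, 38.9 in UAC and 5.74 in UAC_miR330 (−2.72). Retn, resistin, a secreted protein of myeloid cells in many species, stood at 33.4 CPM in sham, 47.9 in UAC and 14.4 in UAC_miR330 (−1.72). Both were low in UAC_miR330 alone, and outside the neutrophil clusters they stood at 282, 258 and 217 CPM and 4.17, 47.5 and 17.0 CPM. The other falls beside Cd74 were Pdss2 (−1.53), Dazap1 (−1.38), Bcar3 (−1.34), AABR07002700.1 (−1.27), Dgcr6 (−1.21), Spib (−1.21) and the ribosomal RNA feature RF00001 (−1.21). Retn and AABR07002700.1 were also called lower in the Il1b-rich and whole neutrophil sums. Trim2 was called lower in the Il1b-rich sum (−1.81) but not in the whole neutrophil sum (−0.85). The remaining falls, with Cd74, had no call in either sum. In UAC, Trim2, AABR07002700.1 and Spib stood at 1069, 1717 and 685 CPM in their highest other cluster (1, 2 and 2), far above their level here. They were lower in UAC_miR330 together with the B cell markers described below, and the part of RNA from other cells in these falls was not tested. Pdss2 and Bcar3 likewise stood at 1019 and 920 CPM in their highest other cluster of UAC (6 and 15). For these genes the UAC_miR330 over UAC ratios outside the neutrophil clusters were 0.12 and 0.45, opposite in sign to those here. Apart from Trim2, the named falls were smaller on the log2 scale than the rises of AABR07000398.1 and Hist1h1c.

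The AAV of the UAC_miR330 group carried miR-330, whose arms in RefSeq lie at chr1:87961227-87961248 (5p) and chr1:87961266-87961288 (3p) of GRCr8, plus strand. Their mature sequences are printed because they are the agent that separates the last 2 groups, with the seed, bases 2 to 8, in capitals.
miR-330-5p: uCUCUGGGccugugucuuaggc
miR-330-3p: gCAAAGCAcagggccugcagaga

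The seeds differ, so the arms form 2 groups of 1. Polyadenylated RNA sequencing does not count mature microRNAs, so their level in the neutrophils was not measured. Among the genes the study took as miR-330 targets, 4 were looked for, and Tnf was not analysed here. Ctgf, a matricellular growth factor, had 14, 8 and 4 UMIs in sham, UAC and UAC_miR330, Fgfr1, a fibroblast growth factor receptor, had 2, 2 and 2 UMIs, and Epor, the erythropoietin receptor, had 0, 1 and 1 UMIs. All of these counts were too few to show a difference in the chosen clusters. In the whole neutrophil sum Ctgf was called lower in UAC_miR330 than in UAC (−1.23). The part of RNA from other cells in this call was not tested. Ctgf stood at 257, 122 and 97.5 CPM outside the neutrophil clusters of sham, UAC and UAC_miR330. Ctgf was called lower in UAC than in sham there (−1.07), without a call between UAC_miR330 and UAC. There Fgfr1 stood at 23.8, 16.7 and 21.9 CPM and Epor at 2.56, 2.75 and 3.80 CPM, with ratios of 0.39 and 0.47 for UAC_miR330 over UAC, also without a call. Il1b was abundant and nearly level between UAC_miR330 and UAC (0.04), with intervals of 2097 to 2220.1 and 2154 to 2273 CPM that overlapped. In the Il1b-rich sum, which the level of Il1b itself defined, its ratio was 0.52, and in the whole neutrophil sum 0.17. None of these was called. Outside the neutrophil clusters Il1b stood at 40.7, 80.9 and 42.6 CPM in sham, UAC and UAC_miR330, with a ratio of −0.92 for UAC_miR330 over UAC, short of 2-fold.

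Marker lists of other cell types were summed in the chosen clusters, in the order sham, UAC and UAC_miR330, to show how much of their RNA was present. B cell markers summed to 992, 849.7 and 513 CPM, with Ebf1 the most abundant at 599, 533 and 369.7, and 1, 1 and 1 of 14 were at 0, in all 3 libraries Cd79al. In the cluster richest in the list they summed to 24306, 25116 and 28283 CPM. For UAC_miR330 against UAC, 0 higher and 4 lower of 10 were called: Blnk, Cd24, Fcrla and Vpreb3 stood at 91.2, 89.0 and 32.8 CPM, 59.4, 50.6 and 22.6 CPM, 75.8, 51.5 and 20.5 CPM and 23.6, 15.4 and 5.74 CPM. B cell RNA was thus present at a low level in all 3 clusters and lowest in UAC_miR330, and its part in the neutrophil ratios was not tested. In both sums of clusters 0 genes of the list were called between UAC_miR330 and UAC. T and NK cell markers summed to 7.21, 7.68 and 9.03 CPM, with the most abundant Cd2 in sham at 2.30, Cd3g in UAC at 1.81 and Cd5 in UAC_miR330 at 1.64, and 6, 4 and 4 of 12 were at 0, in all 3 libraries Klrb1. Dendritic cell markers summed to 75.4, 70.5 and 63.6 CPM, with Tcf4 the most abundant at 53.8, 50.6 and 52.9, and 7, 5 and 7 of 12 were at 0, in all 3 libraries Batf3, Cd209a, Fscn1 and Siglech. In the richest cluster of each library the T and NK cell list summed to 445, 3258 and 2624 CPM. The dendritic cell list summed to 1140, 2295 and 1861 CPM in its richest clusters. RNA of both kinds of cell was thus present at a low level in the chosen clusters.

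Monocyte and macrophage markers summed to 392, 592 and 747 CPM, with Aif1 the most abundant at 263, 502 and 590.0, and 1, 5 and 0 of 17 were at 0 (Ms4a7 in sham; C1qa, C1qc, Cd163, Cx3cr1 and Ms4a7 in UAC). The complement genes C1qa, C1qb and C1qc, which mark resident macrophages, had 27, 0 and 21 UMIs, 16, 3 and 29 UMIs and 11, 0 and 20 UMIs. They were absent or nearly so in UAC alone. In the richest cluster the list summed to 6459, 4795 and 5350.1 CPM. Aif1, which held most of the sum in each chosen cluster, stood at 581, 456 and 467 CPM in its highest cluster outside the neutrophil ones. The chosen cluster was thus the highest of all for Aif1 in UAC and UAC_miR330, but not in sham. Of the list, 0 higher and 2 lower of 9 were called in UAC against sham (median −0.06; −0.93 with 3 lower of 12 in the Il1b-rich sum and −0.84 with 5 lower of 13 in the whole neutrophil sum) and 3 higher and 0 lower of 10 in UAC_miR330 against UAC (median 0.74), and for the latter 4 higher of 13 in the Il1b-rich sum (median 0.76) and 4 higher of 13 in the whole neutrophil sum (median 0.65). The summed level of the list was thus mostly Aif1 and is no measure of macrophage RNA alone. C1qa was called lower in UAC than in sham, and all 3 complement genes higher in UAC_miR330 than in UAC. The part of macrophage RNA in the neutrophil ratios was not tested. Osteoclast markers summed to 1035, 588 and 806 CPM, with Mmp9 the most abundant at 923, 398 and 616, which neutrophils make themselves, and 4, 3 and 4 of 10 were at 0, in all 3 libraries Atp6v0d2, Calcr and Ocstamp. Oscar, a receptor of osteoclasts and of myeloid cells, stood at 15.7 CPM in sham, 76.8 in UAC and 61.5 in UAC_miR330 (2.28 and −0.32), low in sham. Immature and progenitor granulocyte markers summed to 100.3, 116 and 122 CPM, with Elane the most abundant at 39.4, 78.2 and 52.1, and 3, 3 and 4 of 12 were at 0, in all 3 libraries Cd34 and Prss57. Early granulocyte RNA was therefore low in each chosen cluster.

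Erythroid markers summed to 121, 87.6 and 133 CPM, with Hba-a1 the most abundant at 75.8, 44.7 and 75.1, and 4, 3 and 0 of 13 were at 0. Mast cell and basophil markers summed to 6.23, 17.2 and 12.7 CPM, with Mcpt10 the most abundant at 2.95, 11.7 and 8.21, and 7, 4 and 6 of 12 were at 0, in all 3 libraries Gata2, Il13, Il4 and Prss34. Eosinophil markers summed to 9.84, 17.2 and 6.56 CPM, with the most abundant Prg2 in sham at 5.90, Prg2 in UAC at 10.8 and Ccr3 in UAC_miR330 at 3.28, and 3, 3 and 4 of 6 were at 0, in all 3 libraries Ear1 and Il5ra. Only traces of these blood cells were found. Platelet markers summed to 49.2, 72.3 and 93.1 CPM, with Itgb3 the most abundant at 47.2, 70.5 and 92.3, and 4, 5 and 5 of 7 were at 0, in all 3 libraries Gp1bb, Itga2b, Ppbp and Vwf. Chondrocyte markers summed to 149, 72.3 and 93.1 CPM, with Col2a1 the most abundant at 43.0, 20.3 and 33.2, and 4, 5 and 4 of 14 were at 0, in all 3 libraries Cytl1, Matn1 and Matn3. Osteogenic and fibroblast markers summed to 263, 154 and 168 CPM, with Col1a1 the most abundant at 154, 77.7 and 90.7, and 4, 3 and 4 of 14 were at 0, in all 3 libraries Dmp1, Pdgfra and Sp7. These skeletal lists were highest in sham. In UAC against sham, 0 higher and 3 lower of 6 chondrocyte and 1 higher and 2 lower of 7 osteogenic genes were called, and in the richest clusters the lists summed to 50530, 38997 and 47511 CPM and to 79370.3, 68226 and 66840.1 CPM. Endothelial markers summed to 4.26, 0.452 and 2.05 CPM, with Tie1 the most abundant at 3.94, 0.452 and 1.23, and 5, 6 and 4 of 7 were at 0, in all 3 libraries Cdh5, Cldn5, Kdr and Tek. The part of RNA from these cells in the ratios above was not tested.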

How the data were processed

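The labels gave 3 libraries, 1 per group, made with 10x Genomics 3′ chemistry from rat condylar cartilage and subchondral bone. According to the labels the authors ran Cell Ranger 7.0, STAR and Seurat 4.0.1; the signal values deposited by the authors are mean counts per gene and graph-based cluster, scaled so that columns sum to about 4541, 5200 and 6123.5 in sham, UAC and UAC_miR330. Dividing by the smallest positive mean of each column gave whole numbers, here taken as whole reads recovered (UMIs), for 100% of positive values within 0.01. The deposited fold changes and p values were not used, and Tnf was not analysed here. The genome builds named in the labels are not rat builds, while the gene identifiers are rat; positions here are from RefSeq on GRCr8. With 1 library per condition no count model can be fitted and no test was made. Members and gene lists were chosen with earlier results of these data known. Of 647 symbols in 34 lists, 618 matched by name, 5 through RefSeq synonyms and 24 not. Genes were named by rule: the 5 markers; the 4 target genes; in each list up to 3 members with the most UMIs and up to 3 called members with the largest ratio each way in each comparison; the 10 largest rises and falls with at least 100 UMIs, without housekeeping genes and other cell types' markers; the 10 most abundant genes of each cluster; and the 5 most like Cxcr2, among genes with at least 500 UMIs; a few genes these rules gave are not reported here. Alternatives were 4 scalings, filters of 1 and 100 UMIs, 5 UMIs added, a 1.5-fold threshold, 99% intervals, the next cluster for Cxcr2 added, the choice by Csf3r and, chosen after seeing the data, the Il1b-rich and whole neutrophil sums. The code was tested on simulated data and run in Python 3.11.15 with numpy 2.4.6, pandas 2.3.3, scipy 1.17.1 and matplotlib 3.10.9.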

Additional observations from a re-analysis of the deposited data

How the results depend on the processing

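Counts of higher and lower calls are given for UAC against sham, then for UAC_miR330 against UAC, and the cause was not tested unless the change itself explains it. Against 146 and 143, and 209 and 81, the deposited scale gave 277 and 97, and 533 and 31; centring gave 97 and 122 for the second comparison. With at least 100 UMIs, which leaves fewer genes, the counts were 77 and 64, and 99 and 30; with a 1.5-fold threshold, which is looser, 395 and 258, and 652 and 163; with 99% intervals, which are wider, 87 lower in the first and 125 and 49 in the second. With the chosen and next cluster for Cxcr2 summed, 821 genes were lower in UAC than in sham and 423 higher in UAC_miR330 than in UAC; in the Il1b-rich sum 39 were higher in UAC and 423 higher in UAC_miR330; in the whole neutrophil sum 38 and 466, and 409 and 42. The share of UMIs was 10.0%, 7.17% and 4.74% in sham, UAC and UAC_miR330 for the chosen and next cluster, 7.17% and 4.74% in UAC and UAC_miR330 for the Il1b-rich sum, 10.0%, 12.3% and 10.6% for the whole neutrophil sum, and 4.64%, 2.78% and 2.85% without housekeeping genes; the cluster highest in Csf3r was the same cluster in each library. Every other count was within 1.5 times its main value. Called log2 ratios of named genes that changed sign did so only when clusters were summed. For UAC over sham they were, with the next cluster, Mmp9 0.81; in the Il1b-rich sum Tf 0.35, Camp 0.48, Cd177 0.28, Ngp 1.76, Lcn2 1.17, Hp 0.11, Anxa1 0.65, Serpinb1a 1.08, Mmp9 0.12, Ifitm3 0.018, Cybb 0.35, Ccl6 −0.19, Csf1 −0.065, Vegfa −0.12, Maff −0.12, Ifit1bl −0.036, Cebpe 0.70, Cox7c 0.15, Abca13 0.92, Orm1 1.05, Ccdc125 0.22, Chit1 0.79, Qpct 0.21 and Hes1 −0.085; in the whole neutrophil sum Tf 0.095, Cd177 0.064, Ngp 0.33, Lcn2 0.29, Anxa1 0.15, Mmp9 0.21, Csf1 −0.043, Il1r1 −0.053, Abca13 0.32 and Orm1 0.29. For UAC_miR330 over UAC they were, with the next cluster and in the Il1b-rich sum alike, Cd177 −0.60, Stfa3 −0.22 and Abca13 −0.18, and in the whole neutrophil sum Cd177 −0.11 and Stfa3 −0.57. No called ratio of a named gene changed sign under the scalings, the UMI filters or 5 UMIs added; 147 of 326 ratios moved beyond their counting interval on the deposited scale, 101 when centred and 64 of 310 without the top 10 genes, against 0 without housekeeping genes. With 1 library per group, differences between animals, between pools and between runs of clustering cannot be told apart from the condition, and no count of cells was used. Genes under 20 UMIs in the 2 clusters compared were not measured, and calls near 20 UMIs rest on a few molecules. The clusters are those of the authors' files, numbered apart in each library, and the same kind of cell may be split at different points of its maturation.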

Other observations

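Genes called the same way in the chosen clusters, in the chosen cluster with the next one for Cxcr2, and in both other sums were counted. For UAC_miR330 against UAC, 2 of these 3 sums are the same clusters, so the 2 comparisons met unlike numbers of boundaries and their counts are not to be set side by side. There were 5 of 146 higher and 12 of 143 lower calls of this kind in UAC against sham, and 98 of 209 higher and 14 of 81 lower in UAC_miR330 against UAC. The genes named here beyond those of the report were chosen after their values were seen. The 5 higher in UAC than in sham were Fetub, Klf2, the immunoglobulin heavy chain Igh-6 (5.25, 40.7 and 16.0 CPM in sham, UAC and UAC_miR330), LOC100910636 (4.26, 15.4 and 8.62 CPM) and AABR07027287.1 (0.984, 8.13 and 2.05 CPM). Among the 12 lower were the cartilage and bone matrix genes Bgn (44.3, 21.7 and 17.2 CPM), Col11a2 (19.0, 7.68 and 11.5 CPM), Snorc and Postn, and the heat shock factor Hsf1 (7.54, 1.81 and 4.10 CPM). Outside the neutrophil clusters Igh-6 stood at 256, 1775 and 605 CPM, Bgn at 1299, 519 and 383 CPM and Col11a2 at 464, 218 and 286 CPM, far above their level here and with calls in the same direction for UAC against sham. These 3 thus moved with the rest of the library, and the part of RNA from other cells in them was not tested. Of the 98 higher in UAC_miR330 than in UAC, the most abundant were the histone H3f3b (407, 506 and 1034 CPM), the scaffold protein Iqgap1 (264, 300.4 and 651 CPM) and the RNA uridylyltransferase Tut7 (228, 293 and 648 CPM). The actin-filament genes Actg1 (115, 164 and 329 CPM) and Tpm4 (44.9, 98.0 and 253 CPM) belonged to them as well. All of these were highest in UAC_miR330. The 14 lower included Dusp2 and Retn, the Notch target Hes1 (8.85, 23.5 and 5.33 CPM), the B cell activation receptor Cd40 (14.1, 11.3 and 3.69 CPM) and the signalling adaptor Traf4 (16.7, 17.6 and 7.80 CPM). These were lowest in UAC_miR330 of the 3 libraries. Dusp2, Hes1, Cd40 and Traf4 stood at 203, 36.9, 100 and 166 CPM outside the neutrophil clusters of UAC, above their level here. They stood at 133, 23.5, 91.9 and 106 CPM there in UAC_miR330, and the part of RNA from other cells in these falls was not tested.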
